A study of Mus musculus with 8 samples.

Results

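The genes of glycolysis and of the pentose phosphate pathway were followed in mouse CD8+ T cells before culture and after 5 days of culture. The 34 members were chosen as a list of gene symbols: the enzymes from hexokinase to lactate dehydrogenase, 3 genes of the pyruvate dehydrogenase complex and 3 of its kinases, 2 bifunctional enzymes that set fructose 2,6-bisphosphate, 7 pentose phosphate enzymes, and *Hif1a*, the oxygen-sensing transcription factor that activates many of these genes. All 34 were among the 48321 symbols of the count tables, and 33 were among the 12597 genes with enough counts to be tested. The exception was *Eno2*, the neuronal enolase, with between 1 and 5 counts per library.

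Glycolysis splits glucose into pyruvate, which lactate dehydrogenase turns into lactate or the pyruvate dehydrogenase complex feeds into the mitochondrial citric acid cycle. The pentose phosphate pathway branches off at glucose 6-phosphate: its oxidative arm yields NADPH, and its non-oxidative arm exchanges sugars between ribose 5-phosphate and glycolytic intermediates. Resting T cells rely mainly on oxidative metabolism, and activated T cells are known for high aerobic glycolysis.

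RNA was sequenced from sorted splenic CD8+ T cells of C57BL/6 mice in 4 groups of 2 libraries each: WT at day 0, KO at day 0, WT at day 5 and KO at day 5. The series describes the mice as Satb1 F/F with E8I-cre, so that Cre, driven by an enhancer of the *Cd8a* locus, acts in mature CD8 lineage cells on floxed alleles of *Satb1*, a chromatin organiser. The age of the mice, the Cre status of the WT mice and the culture conditions are not given in the sources used here, beyond a title that calls the cells in vitro stimulated. Nothing states that libraries of a group came from separate mice, so p-values measure the spread between these libraries, which may be technical.

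Total counts per library ranged from 4170126 to 11117971, with the deepest library among the KO-labelled ones of day 0. *Satb1*, the targeted gene, stood at 97.8 and 91.6 CPM (counts per 1000000 counts of the scaled library total) in WT at day 0, 144 and 125 CPM in KO at day 0, 96.5 and 116 CPM in WT at day 5, and 56.5 and 62.3 CPM in KO at day 5. The libraries with the KO label were thus above WT at day 0 and below WT at day 5. Since the day 0 values run against the label, and the exons removed by Cre are not given in the sources used here, these groups are called KO-labelled. The 6 markers of CD8 T cells used for the check, the CD3 chains, both CD8 chains and *Trac*, were each above 10 CPM in every library, and their sum ran from 12133 to 13034 CPM at day 0 and from 7958 to 9001 CPM at day 5. Of 6 B cell markers 1, *Cd79b*, exceeded 10 CPM, and their sum was 124 to 168 CPM at day 0 and 67.6 to 84.6 CPM at day 5. The 6 myeloid markers summed to 12.5 to 22.2 CPM at day 0, 34.7 to 41.7 CPM in WT at day 5 and 52.3 to 73.6 CPM in the KO-labelled libraries at day 5. *Cd68* was the one above 10 CPM at day 5, with *Adgre1* and *Cd14* at 0 in all 4 libraries. In such bulk samples, fewer cells of a type and less RNA per cell cannot be told apart.

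Between day 0 and day 5 most of the tested members rose in both genotypes. The summed counts of the 34 genes made up between 0.538% and 0.572% of all gene counts in the day 0 libraries. At day 5 the share was 3.26% and 2.84% in WT and 3.58% and 3.75% in the KO-labelled libraries. In WT, 21 of the 33 tested members were called higher at day 5 and 3 lower, by edgeR's quasi-likelihood test at a Benjamini-Hochberg false discovery rate (FDR) under 0.05 across all tested genes. Of all tested genes, 24.7% were called higher and 23.6% lower in that comparison. In the KO-labelled libraries, 24 members were called higher and 1 lower, where 26.2% of all tested genes were called higher and 24% lower. The members' median log2 fold change was 1.76 in WT and 1.94 in the KO-labelled libraries, against -0.04 and -0.05 over all tested genes. Changes of at least 8-fold were called for 8 members in WT and 11 in the KO-labelled libraries, where 7.47% and 7.89% of all tested genes were called at that size. Both genotypes shared 21 members called higher and 1 called lower, while 6 members were called in neither. The myeloid marker sum was also higher at day 5, through *Cd68* alone (2.23 to 5.14 CPM at day 0 and 30.7 to 68.4 CPM at day 5), while *Csf1r* (6.80 to 11.7 and 3.53 to 4.73 CPM) and *Itgam* (2.06 to 5.20 and 0.482 to 1.47 CPM) were lower. The B cell and CD8 T cell marker sums were lower at day 5. The part of these markers in the changes was not tested.

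**Figure D1:**
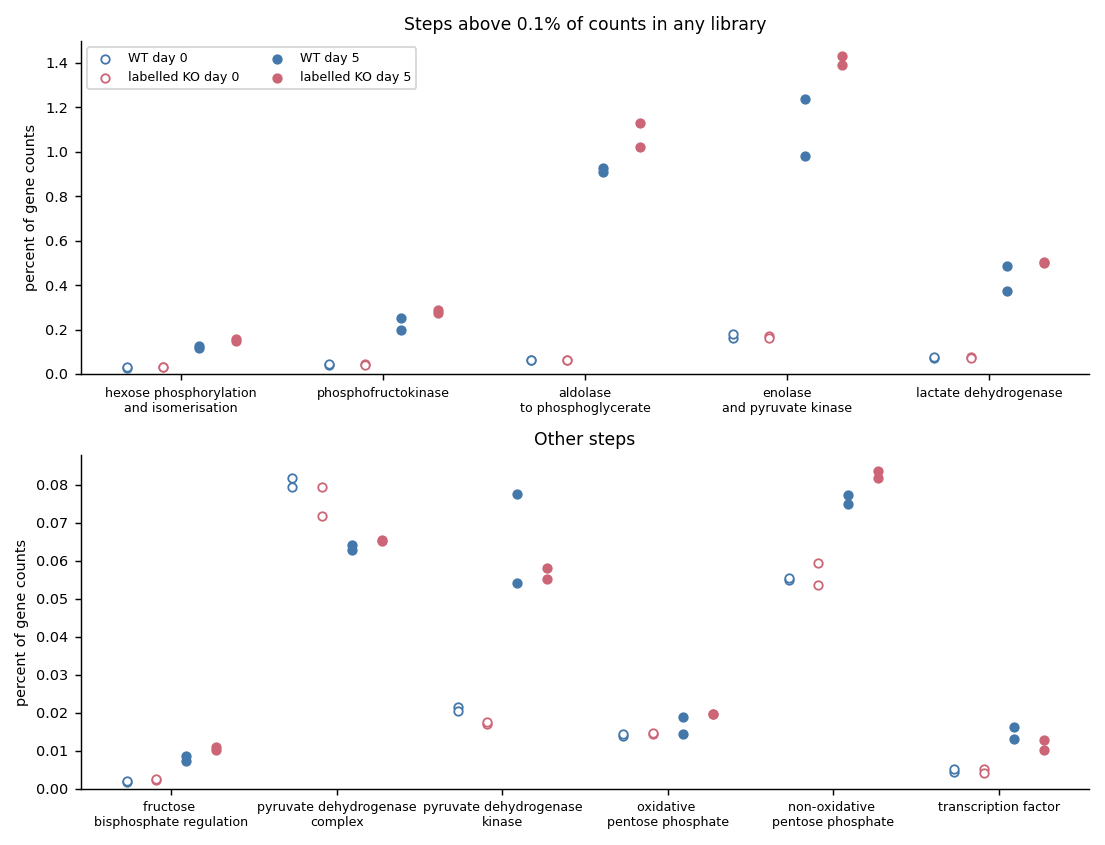
Summed counts of the members of each pathway step as a percentage of all gene counts, 1 point per library, open at day 0 and filled at day 5, blue for WT and red for the KO-labelled libraries; the vertical scale of the lower panel is smaller. Enolase and pyruvate kinase took the highest share of these uniquely counted reads at day 5, from 0.982% to 1.43%. The pyruvate dehydrogenase complex was the step whose day 5 libraries all lay below its day 0 libraries. These shares take raw totals, without the scaling used for CPM. In the fits, which use that scaling, *Pdhb* alone of that step was called lower, in WT, and none in the KO-labelled libraries.

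At the first step *Hk2* rose in both genotypes, and *Hk1* was called higher in the KO-labelled libraries only. Hexokinases trap glucose in the cell as glucose 6-phosphate, and *Hk2* is the inducible form while *Hk1* is the widely expressed one. On the minus strand of GRCm38, *Hk2* spans chr6:82725025-82774454 and *Hk1* chr10:62268855-62379908 in GENCODE M21. For *Hk2*, the day 0 libraries gave 1.61 and 1.36 CPM in WT and 0.686 and 1.28 CPM in the KO-labelled ones, and the day 5 libraries 148 and 159 CPM in WT and 135 and 118 CPM in the KO-labelled ones. Only 6 to 9 reads lay behind the day 0 values, and all day 5 libraries stood far above them. The log2 fold change of *Hk2* was 6.66 ± 0.25 (SE) in WT and 7.12 ± 0.25 (SE) in the KO-labelled libraries (edgeR FDR 6.00e-10 and 2.83e-10). Scaled counts of *Hk1* at day 0 came to 79.2 and 109.9 CPM in WT and to 102 and 88.1 CPM with the KO label, and at day 5 to 85.0 and 61.4 CPM in WT and to 139 and 194 CPM with the KO label. The day 5 WT libraries overlapped those of day 0, whereas both KO-labelled day 5 libraries lay above all day 0 libraries. The log2 fold change of *Hk1* was -0.36 ± 0.21 (SE) in WT, not called (edgeR FDR 0.186), and 0.81 ± 0.21 (SE) in the KO-labelled libraries (edgeR FDR 0.00608). That second call was lost without replicate 2 of KO at day 5 (edgeR FDR 0.0922). For *Hk1*, the test of the difference between genotypes in this change did not pass in the main fit (edgeR FDR 0.153). On a scale of mean CPM per kb of mRNA, which allows levels of different genes to be compared, *Hk2* rose in WT from 0.269 to 27.8 CPM per kb, past *Hk1* at 19.0. In the KO-labelled libraries at day 5, *Hk2* reached 23.0 and *Hk1* 43.3 CPM per kb. *Gpi1*, the isomerase that makes fructose 6-phosphate, was called higher in both, with log2 fold changes of 2.44 ± 0.12 (SE) and 2.76 ± 0.12 (SE).

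Phosphofructokinase commits fructose 6-phosphate to glycolysis, and its 3 subunit genes were all called higher in both genotypes. The platelet-type subunit *Pfkp* had the largest rise of the 3. Day 0 levels of *Pfkp* were 253 and 259 CPM in WT and 284 and 233 CPM in the KO-labelled libraries, and its day 5 levels 2122 and 1582 CPM and 2230.1 and 2261 CPM in the same order. Its log2 fold change was 2.85 ± 0.15 (SE) in WT and 3.11 ± 0.16 (SE) in the KO-labelled libraries (edgeR FDR 1.56e-08 and 6.19e-09). The liver-type subunit *Pfkl* was next in level. *Pfkl* stood at 140.1 and 164 CPM in WT and 151 and 142 CPM in the KO-labelled libraries at day 0, and at 587 and 385 CPM in WT and 670.5 and 769 CPM in the KO-labelled ones at day 5. For *Pfkm*, the day 0 libraries gave 5.72 and 9.50 CPM in WT and 12.4 and 9.54 CPM in the KO-labelled ones, and the day 5 libraries 33.7 and 35.4 CPM in WT and 38.8 and 43.9 CPM in the KO-labelled ones. This muscle-type subunit remained the least abundant of the 3 at day 5, with 12.0 and 14.4 CPM per kb beside 447 and 542 for *Pfkp* in WT and in the KO-labelled libraries. The allosteric activator fructose 2,6-bisphosphate is made and removed by the *Pfkfb* enzymes. Scaled counts of *Pfkfb3* at day 0 came to 13.6 and 17.6 CPM in WT and to 19.2 and 23.5 CPM with the KO label, and at day 5 to 77.6 and 82.4 CPM in WT and to 104 and 106 CPM with the KO label. *Pfkfb3*, the form in which kinase activity prevails most, was called higher in both genotypes, by 2.36 ± 0.19 (SE) and 2.31 ± 0.18 (SE) on the log2 scale. Day 0 levels of *Pfkfb4* were 3.40 and 2.71 CPM in WT and 1.97 and 1.28 CPM in the KO-labelled libraries, and its day 5 levels 2.65 and 4.82 CPM and 4.23 and 10.04 CPM in the same order. *Pfkfb4* was called higher in the KO-labelled libraries (2.06 ± 0.51 (SE), edgeR FDR 0.00480) and not in WT (0.25 ± 0.54 (SE), FDR 0.734). Without replicate 2 of KO at day 5, its higher library, that call was lost and the value was 1.32 (edgeR FDR 0.11), and the test of the difference between genotypes did not pass (edgeR FDR 0.343).

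**Figure D2:**
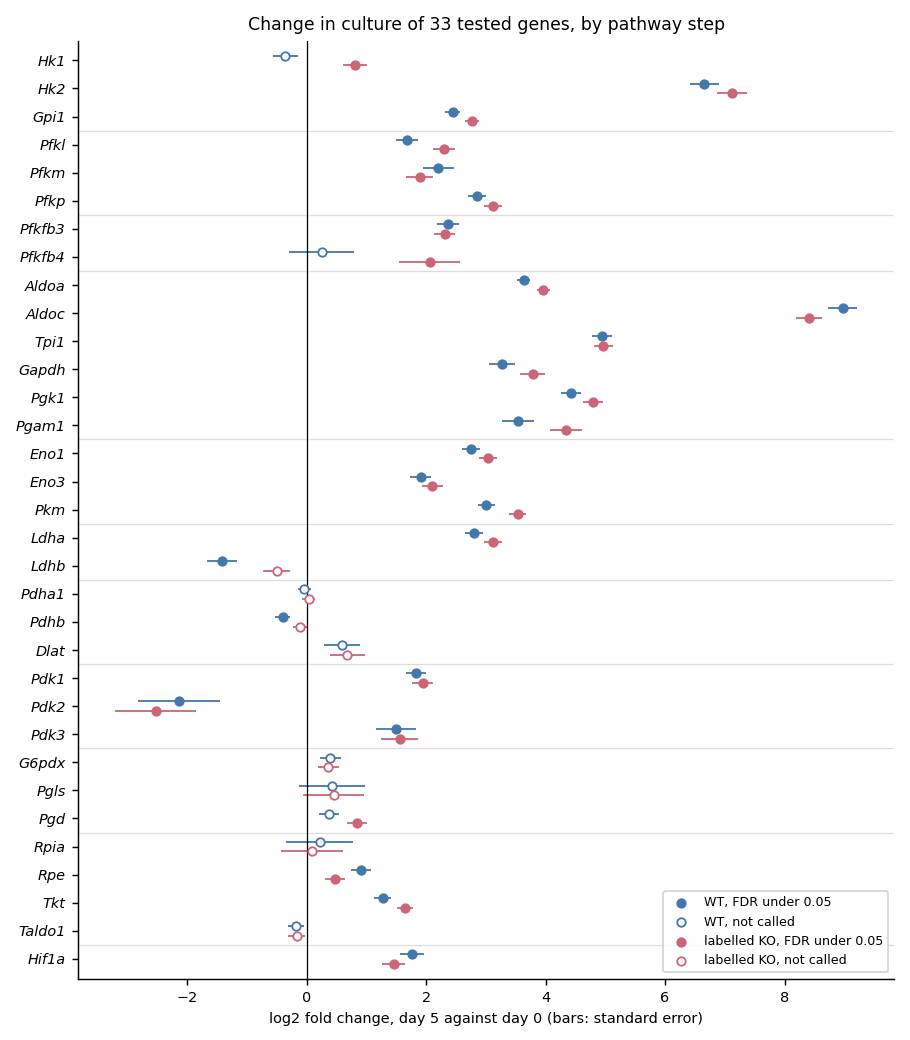
Log2 fold change of day 5 against day 0 for the 33 tested members, in pathway order from top to bottom with grey lines between steps, blue for WT and red for the KO-labelled libraries; filled points passed an FDR of 0.05 and bars are standard errors of the fit. The 6 genes from *Aldoa* to *Pgam1* lie between 3.27 and 8.98, and *Ldhb* and *Pdk2* lie below 0.

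The steps from aldolase to phosphoglycerate mutase had the largest median change of the pathway steps, 4.03 in WT and 4.57 in the KO-labelled libraries on the log2 scale. In both genotypes 6 of 6 members were called higher. Outside these steps, *Hk2* changed by 6.66 and 7.12. Aldolase splits fructose 1,6-bisphosphate into trioses, and its brain-type form *Aldoc* had the largest change. *Aldoc* stood at 1.97 and 0.904 CPM in WT and 2.40 and 3.12 CPM in the KO-labelled libraries at day 0, and at 749 and 774 CPM in WT and 818 and 1001 CPM in the KO-labelled ones at day 5. The day 0 values rested on between 4 and 28 reads. Its log2 fold change was 8.98 ± 0.24 (SE) in WT and 8.41 ± 0.22 (SE) in the KO-labelled libraries (edgeR FDR 9.28e-11 and 4.30e-11). Without replicate 1 of WT at day 0 the WT value of *Aldoc* was 9.69. For *Aldoa*, the day 0 libraries gave 444 and 468 CPM in WT and 476 and 451 CPM in the KO-labelled ones, and the day 5 libraries 5498 and 5781 CPM in WT and 6909 and 7512 CPM in the KO-labelled ones. The muscle-type *Aldoa* stayed the more abundant aldolase at day 5, with 3732 CPM per kb in WT beside 273 for *Aldoc*. Scaled counts of *Tpi1* at day 0 came to 44.0 and 41.6 CPM in WT and to 39.9 and 45.0 CPM with the KO label, and at day 5 to 1487 and 1155 CPM in WT and to 1243 and 1395 CPM with the KO label. *Tpi1*, which interconverts the trioses, rose by 4.95 and 4.96 on the log2 scale, nearly the same value in both genotypes. *Gapdh* and *Pgk1* carry the oxidation of glyceraldehyde 3-phosphate and the first ATP-forming step. Day 0 levels of *Gapdh* were 6.80 and 7.46 CPM in WT and 6.26 and 6.61 CPM in the KO-labelled libraries, and its day 5 levels 78.0 and 58.8 CPM and 87.6 and 88.8 CPM in the same order. *Pgk1* stood at 88.2 and 77.8 CPM in WT and 66.9 and 74.5 CPM in the KO-labelled libraries at day 0, and at 2042 and 1517 CPM in WT and 1875 and 2041 CPM in the KO-labelled ones at day 5. Their log2 fold changes were 3.27 ± 0.21 (SE) and 3.78 ± 0.20 (SE) for *Gapdh*, and 4.42 ± 0.17 (SE) and 4.79 ± 0.17 (SE) for *Pgk1*. For *Pgam1*, the day 0 libraries gave 3.76 and 2.71 CPM in WT and 1.97 and 1.65 CPM in the KO-labelled ones, and the day 5 libraries 34.4 and 42.2 CPM in WT and 34.8 and 41.3 CPM in the KO-labelled ones. *Pgam1*, the mutase of the next step, gave 3.53 ± 0.27 (SE) and 4.34 ± 0.27 (SE).

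Several of these levels depend on how much of each gene can be counted uniquely. Of all records in a library, between 31.8% and 37.4% aligned to more than 1 place and were counted for no gene. Across all transcripts of *Gapdh*, windows of 50 bases recur in 213 pseudogenes. Of the 50-base windows of the principal mRNA, 82.5% recur in other genes for *Gapdh*, 72.2% for *Eno1*, 68.0% for *Pgk1* and 41.5% for *Pgam1*. Levels of these genes on any scale are therefore uncertain, and the low CPM of *Gapdh* covers its unique stretches. The share of records aligned to more than 1 place was 31.8% to 34.5% at day 0 and 35.7% to 37.4% at day 5. *Pkm*, *Pdhb*, *Ldhb* and *Gpi1* shared between 25.3% and 34.4% of windows. The other 26 members shared less than 20%, and 14 of them none, *Hk2*, *Aldoc* and *Tkt* included. Among those 26, 15 were called higher in WT and 18 in the KO-labelled libraries.

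The closing steps of glycolysis, enolase and pyruvate kinase, were among the most abundant at day 5. Scaled counts of *Eno1* at day 0 came to 871 and 952 CPM in WT and to 932 and 871 CPM with the KO label, and at day 5 to 7188 and 5067 CPM in WT and to 7533 and 7286 CPM with the KO label. *Eno1*, the ubiquitous enolase, had a log2 fold change of 2.75 ± 0.15 (SE) in WT and 3.04 ± 0.15 (SE) in the KO-labelled libraries. *Eno3*, the muscle enolase, was low and was called higher in both genotypes (log2 fold changes 1.906 and 2.101). Day 0 levels of *Pkm* were 638 and 730.1 CPM in WT and 678 and 648 CPM in the KO-labelled libraries, and its day 5 levels 6229 and 4740.4 CPM and 7382 and 7974 CPM in the same order. *Pkm*, whose product makes pyruvate and ATP, gave 3.003 ± 0.14 (SE) and 3.53 ± 0.14 (SE) (edgeR FDR 3.93e-09 and 9.17e-10). Replicate 2 of WT at day 5 lay below replicate 1 for both *Eno1* and *Pkm*.

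The lactate dehydrogenase genes moved apart. *Ldha* encodes the subunit that favours the making of lactate and *Ldhb* the subunit that favours its use. In GENCODE M21 they span chr7:46841475-46855627 on the plus strand and chr6:142490249-142507957 on the minus strand. *Ldha* stood at 622 and 673 CPM in WT and 637 and 586 CPM in the KO-labelled libraries at day 0, and at 5299 and 3742 CPM in WT and 5299.9 and 5308 CPM in the KO-labelled ones at day 5. All day 5 libraries stood above all day 0 libraries, with a log2 fold change of 2.80 ± 0.15 (SE) in WT and 3.12 ± 0.15 (SE) in the KO-labelled libraries (edgeR FDR 1.57e-08 and 5.58e-09). For *Ldhb*, the day 0 libraries gave 66.0 and 56.3 CPM in WT and 88.8 and 82.9 CPM in the KO-labelled ones, and the day 5 libraries 16.05 and 30.6 CPM in WT and 52.6 and 68.5 CPM in the KO-labelled ones. The groups did not overlap between days within a genotype, and WT at day 5 was the lowest group. *Ldhb* fell by 1.42 ± 0.25 (SE) on the log2 scale in WT (edgeR FDR 0.000591). In the KO-labelled libraries the value was -0.51 ± 0.23 (SE), which did not pass (edgeR FDR 0.0874). It passed under 6 of the alternative settings tried, 3 of which were library totals only, an offset for GC content and length, and the libraries of that comparison alone (edgeR FDR 0.0346, 0.00972 and 0.0256).

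Around the pyruvate dehydrogenase complex, 1 of 3 subunit genes was called lower in WT and 0 in the KO-labelled libraries. Of the 3 kinase genes whose products switch the complex off, 2 rose and 1 fell in both genotypes. The share of all tested genes called in either direction was 48.3% in WT and 50.2% in the KO-labelled libraries. *Pdha1*, the catalytic alpha subunit, gave -0.04 ± 0.11 (SE) and 0.03 ± 0.11 (SE), and *Dlat*, the acetyltransferase, 0.59 ± 0.30 (SE) and 0.68 ± 0.29 (SE), none of them called. *Dlat* was called higher in WT without replicate 1 of WT at day 0 (1.07, edgeR FDR 0.0289) and in the KO-labelled libraries without either WT library of day 0 (FDR 0.0456 and 0.0421). *Pdhb*, the beta subunit, fell by 0.41 ± 0.12 (SE) on the log2 scale in WT (edgeR FDR 0.0144) and gave -0.11 ± 0.12 (SE) in the KO-labelled libraries (edgeR FDR 0.451), where it was called lower with library totals (-0.30, FDR 0.0347). The WT call of *Pdhb* was lost without either WT library at day 0 (edgeR FDR 0.086 and 0.0656) and without replicate 2 of WT at day 5 (FDR 0.0939). Scaled counts of *Pdk1* at day 0 came to 197 and 186 CPM in WT and to 153 and 155 CPM with the KO label, and at day 5 to 829 and 534 CPM in WT and to 577 and 606 CPM with the KO label. *Pdk1*, a kinase induced by low oxygen in many cells, was called higher in both genotypes, by 1.83 ± 0.17 (SE) and 1.94 ± 0.17 (SE) on the log2 scale. Day 0 levels of *Pdk3* were 5.01 and 3.62 CPM in WT and 5.06 and 5.69 CPM in the KO-labelled libraries, and its day 5 levels 15.2 and 9.16 CPM and 15.3 and 16.1 CPM in the same order. *Pdk3* was also called higher in both, from low levels (log2 fold changes 1.49 and 1.55). *Pdk2* stood at 2.68 and 5.65 CPM in WT and 3.95 and 4.95 CPM in the KO-labelled libraries at day 0, and at 1.06 and 0.723 CPM in WT and 1.29 and 0.189 CPM in the KO-labelled ones at day 5. *Pdk2*, the widely expressed form, was the member called lower in both genotypes, by 2.15 ± 0.69 (SE) and 2.53 ± 0.68 (SE) on the log2 scale (edgeR FDR 0.0211 and 0.00764). Its day 5 values rested on 1 to 7 reads, and the call was lost in each genotype when some single libraries were left out: replicate 2 of WT at day 0 or either WT library at day 5 (edgeR FDR 0.177, 0.0756 and 0.105), and replicate 2 of KO at day 5 (FDR 0.0768). The value in WT was -1.53 without replicate 2 of WT at day 0. In the KO-labelled libraries it was -1.75 and -4.38 without replicate 2 and replicate 1 of KO at day 5, and -3.63 with the libraries thinned to the smallest total.

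**Figure D3:**
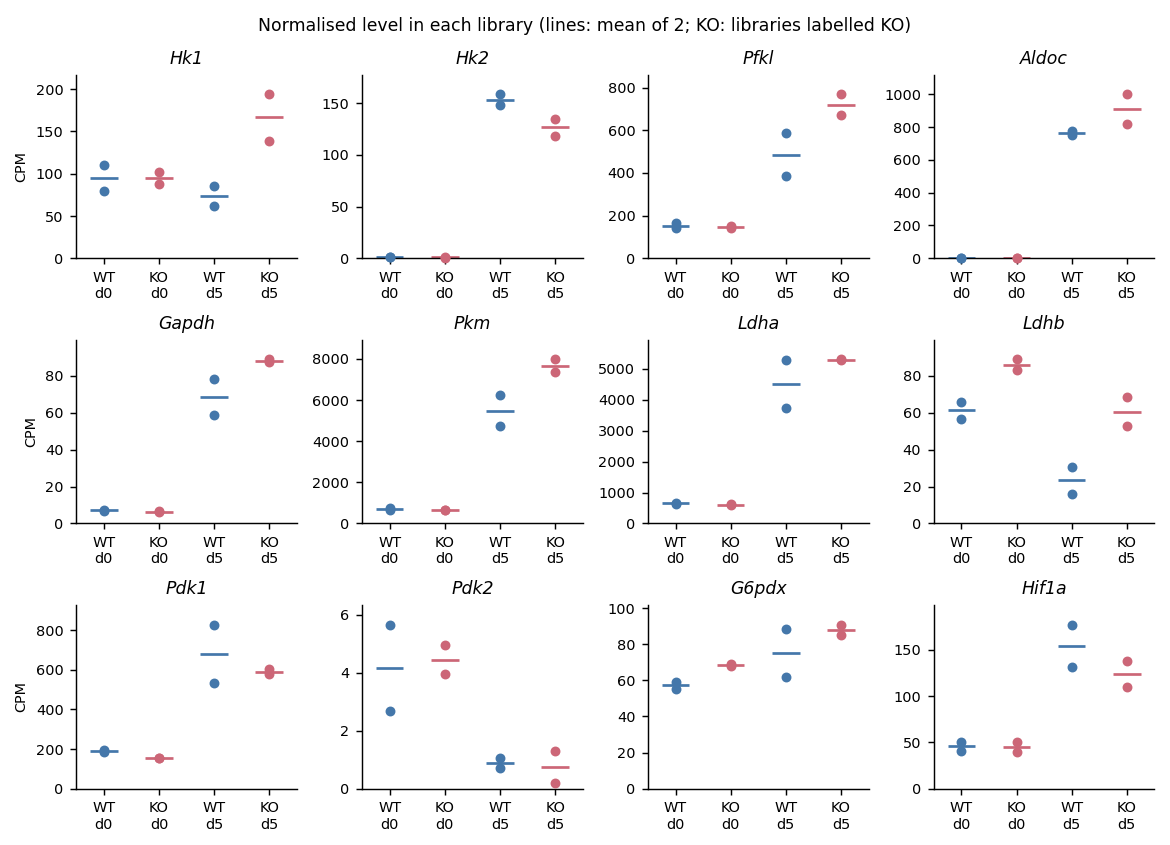
CPM of 12 members in each library, with 1 point per library and a line at the mean of 2; each panel has its own vertical axis from 0, blue for WT and red for the KO-labelled libraries. *Hk2* and *Aldoc* start near 0, *Ldhb* is lowest in WT at day 5 (16.05 and 30.6 CPM), and *Hk1* is highest in the KO-labelled libraries at day 5 (139 and 194 CPM).

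In the pentose phosphate pathway, the oxidative arm had 0 of 3 members called in WT and 1 of 3 in the KO-labelled libraries, and the non-oxidative arm 2 of 4 in each, where 48.3% and 50.2% of all tested genes were called in either direction. The log2 fold changes of the oxidative arm ran from 0.37 to 0.42 in WT and from 0.36 to 0.84 in the KO-labelled libraries, and those of the non-oxidative arm from -0.18 to 1.27 and from -0.17 to 1.65. Whether they differed from those of glycolysis was not tested. For *G6pdx*, the day 0 libraries gave 55.3 and 59.2 CPM in WT and 69.1 and 68.1 CPM in the KO-labelled ones, and the day 5 libraries 88.4 and 61.7 CPM in WT and 85.3 and 90.9 CPM in the KO-labelled ones. *G6pdx*, the X-linked first enzyme of the pathway, gave 0.40 ± 0.17 (SE) in WT and 0.36 ± 0.17 (SE) in the KO-labelled libraries, neither called (edgeR FDR 0.0794 and 0.0951). It was called higher in WT without replicate 2 of WT at day 5 (0.66, edgeR FDR 0.00583), and in the KO-labelled libraries with only the libraries of the comparison (FDR 0.0389) and without either WT library of day 5 (FDR 0.0273 and 0.0321). Of its exon length, 13.6% lies inside exons of the other strand, and the strand setting of the counting is not given in the sources used here. That share was 17.9% for *Rpe*, 16.1% for *Pdha1* and 11.5% for *Gpi1*. Exons of other genes on the same strand covered 20.6% of *Pgls*, 15.3% of *Pkm* and 10.2% of *Pfkm*. *Pgd*, which makes ribulose 5-phosphate, was called higher in the KO-labelled libraries (0.84 ± 0.17 (SE)) and not in WT (0.37 ± 0.17 (SE), edgeR FDR 0.0847). In WT it was also called higher with the GC and length offset (0.56, FDR 0.0136) and without replicate 2 of WT at day 5 (0.64, FDR 0.00442). *Pgls*, the lactonase between them, stood at 1.58 to 3.98 CPM and was not called. In the non-oxidative arm, *Tkt*, transketolase, was called higher in both genotypes, by 1.27 ± 0.14 (SE) and 1.65 ± 0.14 (SE). *Rpe*, the epimerase, rose by 0.90 ± 0.17 (SE) in WT and by 0.47 ± 0.17 (SE) in the KO-labelled libraries, where the call was lost without the filter on low counts (edgeR FDR 0.0893), with library totals only (FDR 0.189) and with the GC and length offset (FDR 0.121). That call was also lost without replicate 2 of KO at day 0 (edgeR FDR 0.203) and without either KO library at day 5 (FDR 0.108 and 0.117). *Taldo1*, transaldolase, stood between 216 and 295 CPM in the 8 libraries and was not called. It was called lower at day 5 in WT and in the KO-labelled libraries with library totals (log2 fold changes -0.33 and -0.36, edgeR FDR 0.0397 and 0.0249) and with the GC and length offset (-0.42 and -0.52, FDR 0.0205 and 0.00567), and in WT without replicate 1 of WT at day 5 (-0.37, FDR 0.0351). *Rpia*, the isomerase, stood between 1.43 and 2.84 CPM.

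Scaled counts of *Hif1a* at day 0 came to 41.1 and 50.2 CPM in WT and to 50.6 and 39.1 CPM with the KO label, and at day 5 to 177 and 132 CPM in WT and to 138 and 110.2 CPM with the KO label. *Hif1a* was called higher in both genotypes, by 1.76 ± 0.20 (SE) in WT and 1.45 ± 0.19 (SE) in the KO-labelled libraries (edgeR FDR 1.32e-05 and 5.13e-05). HIF-1alpha is controlled largely at the protein level by prolyl hydroxylases and VHL, which these RNA values do not show. Of 7 tested genes from a list of 8 HIF regulators and partners, 2 were called higher and 1 lower in each genotype, a share of 42.9% that was below the 48.3% and 50.2% of all tested genes called in either direction. *Egln3*, a prolyl hydroxylase that HIF itself induces, had the largest change, from 0.600 to 3.17 CPM at day 0 to 24.8 to 30.2 CPM at day 5 (log2 fold changes 3.79 ± 0.48 (SE) and 4.14 ± 0.48 (SE)). *Egln1*, the main prolyl hydroxylase, rose by 2.08 ± 0.20 (SE) and 1.97 ± 0.20 (SE). *Hif1an*, which hydroxylates an asparagine of HIF, fell by 0.92 ± 0.22 (SE) and 1.03 ± 0.21 (SE) on the log2 scale.

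Scaling the libraries by their totals alone, in place of TMM factors (trimmed mean of M-values), moved the median of all tested genes' log2 fold changes by -0.14 in WT and -0.18 in the KO-labelled libraries. It reversed the direction of no member call. In the KO-labelled libraries it moved the split of all called genes from 3296 higher and 3029 lower to 2755 higher and 3936 lower, and that of the members from 24 and 1 to 23 and 4.

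The change in the use of isoenzymes was also measured as a log2 ratio of the counts of 2 genes within each library, which does not depend on library scaling. Day 5 differed from day 0 in 6 of 8 ratios, with both genotypes pooled within a day (exact permutation test over 70 divisions of 4 against 4 libraries, two-sided; each p = 0.0286, the smallest this design allows, and adjusted p = 0.0381 over the 8 ratios). The mean ratio of *Hk2* to *Hk1* rose by 6.58 on the log2 scale, that of *Aldoc* to *Aldoa* by 4.89 and that of *Pfkp* to *Pfkl* by 1.01. The ratio of *Ldhb* to *Ldha* fell by 3.93, that of *Pdk2* to *Pdk1* fell by 4.30 and that of *Eno3* to *Eno1* fell by 0.88. In each of these 6 the 4 day 5 libraries lay on one side of the 4 day 0 libraries. How often pairs of other genes would do so was not tested. Among all single genes tested, 48.3% were called between days in WT and 50.2% in the KO-labelled libraries. With a count of 5 added in place of 0.5, the difference was -3.38 for *Pdk2* to *Pdk1* and 5.93 for *Hk2* to *Hk1*, and both still passed (adjusted p = 0.0381, exact permutation test). The *Eno3* to *Eno1* ratio no longer passed with the libraries thinned to the smallest total (adjusted p = 0.0762, exact permutation test, n = 4 and 4), or without any 1 of the day 0 libraries (adjusted p from 0.0653 to 0.0762, exact permutation test, n = 4 and 3). The ratios of *Pfkm* to *Pfkl* (difference 0.09) and of *Pfkfb4* to *Pfkfb3* (difference -1.22) did not pass the exact permutation test (adjusted p = 0.886 and 0.098). Between genotypes on a day, 2 libraries against 2 cannot reach an exact p under 0.05, so values alone are given. At day 5 the *Hk2* to *Hk1* ratio was 0.80 and 1.37 in WT and -0.04 and -0.72 in the KO-labelled libraries. *Hk2* thus had 63.5% and 72.1% of the hexokinase pair's counts in WT and 49.3% and 37.8% in the KO-labelled libraries. The *Ldhb* to *Ldha* ratio at day 5 was -8.36 and -6.93 in WT and -6.65 and -6.27 in the KO-labelled libraries. In both pairs the 2 groups did not overlap, which also held at day 5 for *Pfkp* to *Pfkl*, *Aldoc* to *Aldoa* and *Eno3* to *Eno1*. The groups of the *Ldhb* to *Ldha* ratio did not overlap at day 0 either.

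**Figure D4:**
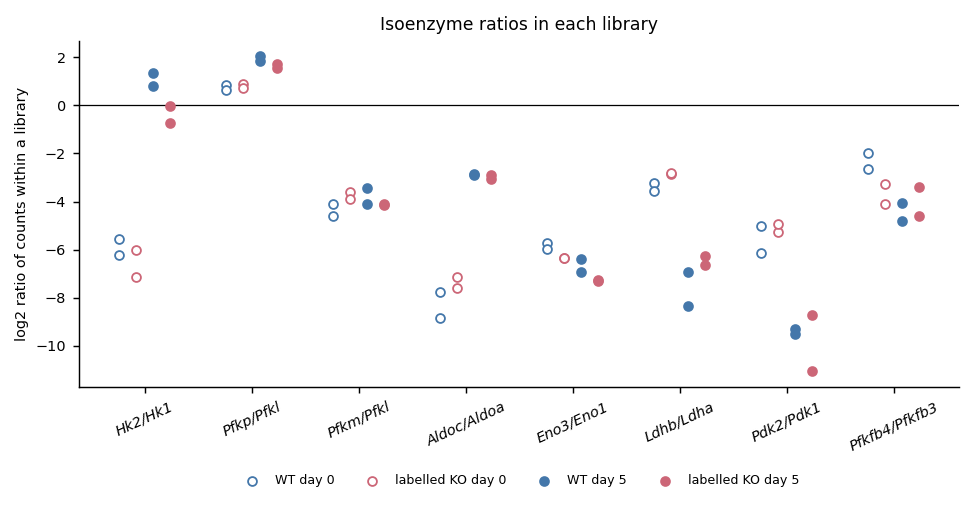
Log2 ratio of the counts of 2 genes within each library for 8 pairs, 1 point per library, open at day 0 and filled at day 5, blue for WT and red for the KO-labelled libraries. The *Hk2* to *Hk1* ratio climbs from between -7.13 and -5.54 at day 0 to between -0.72 and 1.37 at day 5, and the *Ldhb* to *Ldha* ratio drops.

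The promoters of *Hk2*, *Hk1*, *Ldha* and *Ldhb* are shown because these pairs hold the 2 members called between genotypes at day 5 and because HIF and MYC family factors, known regulators of glycolytic genes, bind short motifs that can be read off the sequence. RefSeq sequences (GRCm38.p6) from 250 bases before to 50 bases after each start matched all 34 members, in 49 windows. The motifs searched were ACGTG, the core of the hypoxia response element, and CACGTG, the E-box, which contains ACGTG; both strands were read, the other strand showing ACGTG as CACGT, and overlapping matches were merged. The 250 bases before the first listed start of each gene are printed 5′ to 3′ on the gene's strand with ACGTG matches on either strand in capitals: *Hk2* at chr6:82774455-82774704 (minus strand), *Hk1* at chr10:62379909-62380158 (minus strand), *Ldha* at chr7:46845554-46845803 (plus strand) and *Ldhb* at chr6:142507958-142508207 (minus strand).
Hk2: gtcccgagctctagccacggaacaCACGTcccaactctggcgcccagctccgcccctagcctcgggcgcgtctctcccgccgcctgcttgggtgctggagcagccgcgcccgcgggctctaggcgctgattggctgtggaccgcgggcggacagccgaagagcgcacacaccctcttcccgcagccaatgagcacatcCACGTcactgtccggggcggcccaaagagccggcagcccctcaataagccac
Hk1: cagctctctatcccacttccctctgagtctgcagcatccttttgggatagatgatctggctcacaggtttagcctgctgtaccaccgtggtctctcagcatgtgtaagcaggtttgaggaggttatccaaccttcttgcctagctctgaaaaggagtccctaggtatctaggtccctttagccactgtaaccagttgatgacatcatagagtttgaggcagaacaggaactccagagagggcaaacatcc
Ldha: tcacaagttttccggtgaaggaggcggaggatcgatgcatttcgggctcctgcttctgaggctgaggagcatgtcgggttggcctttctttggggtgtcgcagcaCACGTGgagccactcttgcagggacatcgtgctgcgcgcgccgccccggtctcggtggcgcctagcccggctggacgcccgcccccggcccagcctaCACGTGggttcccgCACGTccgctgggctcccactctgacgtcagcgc
Ldhb: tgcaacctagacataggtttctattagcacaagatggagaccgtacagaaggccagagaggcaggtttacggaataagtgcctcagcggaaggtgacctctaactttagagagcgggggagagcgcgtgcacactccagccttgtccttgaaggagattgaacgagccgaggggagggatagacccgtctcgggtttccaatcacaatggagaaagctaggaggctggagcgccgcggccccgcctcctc
The *Hk2* window held 2 ACGTG sites and the *Ldha* window 3, of which 2 were E-boxes. The first windows of *Hk1* and *Ldhb* held 0, although a second listed start of *Hk1* held 2 and a second start of *Ldha* held 0. The pairs shown were chosen after their values were seen, and the other pairs that moved apart did not share this arrangement throughout. The first window of *Pdk2*, which fell, held 1 ACGTG site, an E-box, and that of *Pdk1*, which rose, held 0. The first window of *Aldoc* held 1 and that of *Aldoa* 0, and those of *Pfkp*, *Pfkl*, *Eno3* and *Eno1* held 0. Of the first windows of members called higher in both genotypes, 10 of 21 (47.6%) held ACGTG, as did 3 of the other 13 members (23.1%). Among first windows of all genes the share was 19.7%, and among all 32851 windows 19.6%. CACGTG was in 14.3% of the first windows of the 21 members and in 7.24% of those of all genes. These matches describe letters and do not show that any factor was bound.

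At day 0 no member passed the test between genotypes. Of the 33 tested members, 0 were called between KO-labelled and WT libraries, where 1.8% of all tested genes were called by edgeR's quasi-likelihood test, and 4 members had an unadjusted p under 0.05, where 13.8% of all tested genes did, so that the members did not exceed the background. DESeq2 also called 0. The 4 were *Eno3* (log2 fold change -0.53 ± 0.19 (SE)), *Pgam1* (-0.81 ± 0.35 (SE)), *Pfkfb3* (0.45 ± 0.19 (SE)) and *Aldoc* (0.82 ± 0.37 (SE)), with edgeR FDR between 0.225 and 0.357. The members' values ran from -0.85 to 0.82 with a median of -0.01.

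At day 5, 2 of the 33 members, *Hk1* and *Ldhb*, were called higher in the KO-labelled libraries and 0 lower, where 1.63% of all tested genes were called. *Hk1* was 2.26-fold higher, with a log2 fold change of 1.18 ± 0.21 (SE) (edgeR FDR 0.0162): 85.0 and 61.4 CPM in WT beside 139 and 194 CPM. The call was lost without replicate 2 of WT at day 5 (log2 fold change 0.97, edgeR FDR 0.11) or without replicate 2 of KO at day 5 (0.92, FDR 0.225). *Ldhb* was 2.64-fold higher, with a log2 fold change of 1.40 ± 0.25 (SE) (edgeR FDR 0.0165): 16.05 and 30.6 CPM in WT beside 52.6 and 68.5 CPM. At day 0 *Ldhb* had stood at 66.0 and 56.3 CPM in WT and 88.8 and 82.9 CPM in the KO-labelled libraries, a log2 fold change of 0.49 ± 0.23 (SE) that did not pass (edgeR FDR 0.379). The day 5 call of *Ldhb* was lost without replicate 1 of WT at day 5 (edgeR FDR 0.0624), without replicate 2 of KO at day 5 (FDR 0.191) and with the 4 day 5 libraries alone (FDR 0.0517). The direction was kept in each case for both genes.

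The other 31 members did not pass the test at day 5. Of the 33 log2 fold changes of KO-labelled against WT libraries 24 were positive, and their median was 0.25 beside 0 over all tested genes. With *Hk1* and *Ldhb*, 8 members had an unadjusted p under 0.05, where 14.1% of all tested genes did. The calls over all genes leaned the same way, with 165 higher and 40 lower in the KO-labelled libraries. The other 6 members, each with a higher mean in the KO-labelled libraries, were *Pkm* (0.49 ± 0.13 (SE)), *Aldoa* (0.35 ± 0.10 (SE)), *Gpi1* (0.38 ± 0.11 (SE)), *Pfkl* (0.56 ± 0.17 (SE)), *Pfkfb3* (0.39 ± 0.16 (SE)) and *Tkt* (0.31 ± 0.13 (SE)). Their edgeR FDR lay between 0.0905 and 0.315. DESeq2 called 5 members, adding *Pkm*, *Pfkl* and *Aldoa* (adjusted p 0.0247, 0.0438 and 0.0486). Replicate 2 of WT at day 5 was the lower WT library for *Pfkl*, *Eno1*, *Pkm* and *Ldha*. Without replicate 1 of WT at day 5, 5 members were called by edgeR, *Hk1*, *Pkm*, *Pfkl*, *Eno1* and *Ldha*; without its replicate 2, 1 was called, *Ldhb*. Members with negative values included *Eno3* (-0.33 ± 0.16 (SE)), *Hk2* (-0.28 ± 0.15 (SE)) and *Hif1a* (-0.32 ± 0.19 (SE)), none called. The sum of the 6 myeloid markers was also higher in the KO-labelled libraries at day 5, with *Lyz2*, *Adgre1* and *Cd14* at 0 in both KO-labelled libraries, as were the sums of the 6 CD8 T cell markers (8934 and 9001 CPM beside 7958 and 8031) and of the 6 B cell markers (81.1 and 84.6 CPM beside 67.6 and 68.9), and their part in these values was not tested.

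**Figure D5:**
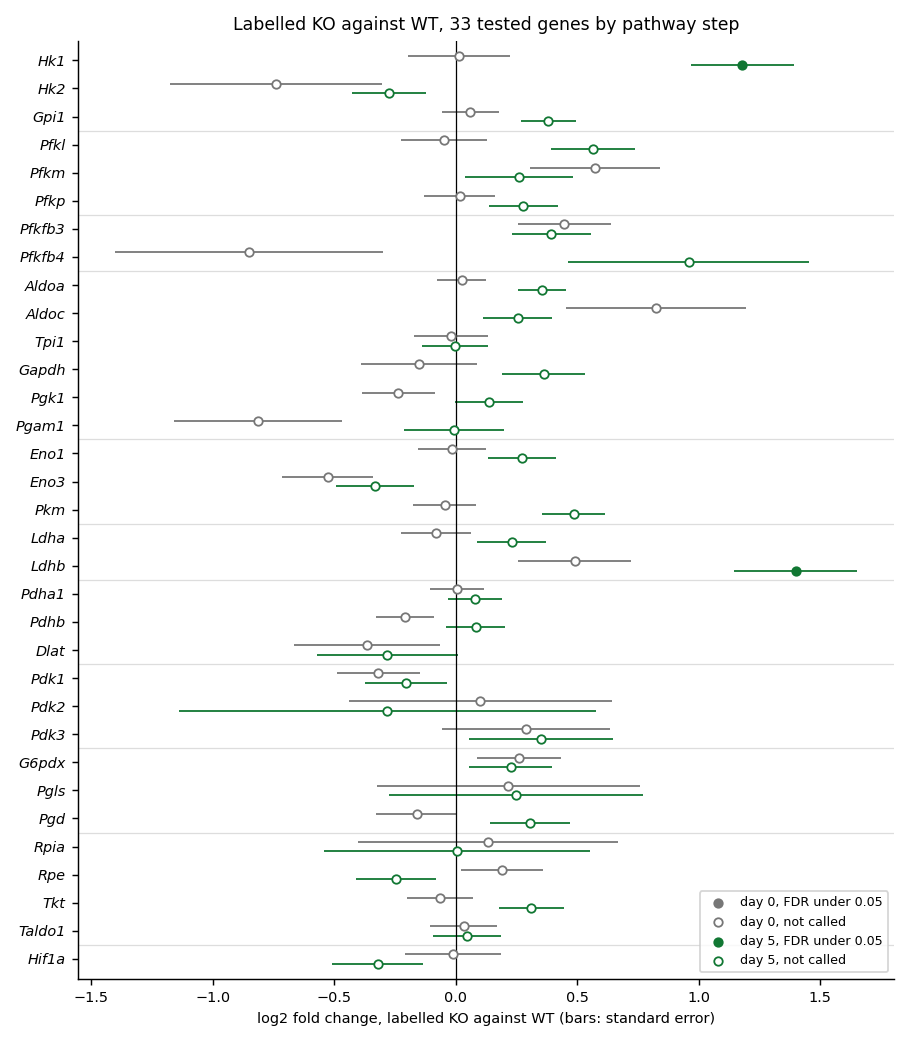
Log2 fold change of the KO-labelled libraries against WT for the 33 tested members in pathway order, grey at day 0 and green at day 5; filled points passed an FDR of 0.05 and bars are standard errors of the fit. *Hk1* and *Ldhb* at day 5 are the filled points, at 1.18 and 1.40.

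Whether the culture response itself differed between genotypes was tested by the genotype by day interaction, the log2 fold change of day 5 against day 0 in the KO-labelled libraries minus that in WT. None of the 33 members was called (0 by edgeR, where 0.159% of all tested genes were called), and 6 had an unadjusted p under 0.05, where 12.4% of all tested genes did: *Hk1*, *Pkm*, *Ldhb*, *Pfkl*, *Pfkfb4* and *Aldoa*, each with a positive value. *Hk1*, which had the smallest p, gave an interaction of 1.17 ± 0.30 (SE) (edgeR FDR 0.153), and DESeq2 called it (adjusted p 0.0171), as did edgeR without the filter on low counts (FDR 0.00271). *Ldhb* had 0.91 ± 0.34 (SE) (edgeR FDR 0.321). Of the members called in a single genotype in culture, *Pfkfb4*, *Pgd*, *Ldhb* and *Pdhb* had no interaction call under any alternative that tested them, and *Hk1* had one under those settings alone.

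Of a companion list of 33 further genes of these pathways, 20 were tested. In WT 3 were called higher and 6 lower at day 5, and in the KO-labelled libraries 5 higher and 3 lower. These shares, 45% and 40% of the tested companions, were below the 48.3% and 50.2% of all tested genes called in either direction. *Pcx*, the pyruvate carboxylase that refills the citric acid cycle, rose from 0.715 to 1.28 CPM across the day 0 libraries to 9.40 to 27.3 CPM at day 5 (log2 fold changes 4.02 ± 0.46 (SE) and 4.33 ± 0.38 (SE)). *Eno1b*, an enolase copy whose mRNA shares 84.5% of its windows with other genes, gave 2.79 ± 0.20 (SE) and 2.89 ± 0.19 (SE). *Bpgm*, which makes 2,3-bisphosphoglycerate, fell by 1.41 ± 0.18 (SE) in WT and by 1.15 ± 0.18 (SE) in the KO-labelled libraries on the log2 scale. *Adpgk*, an ADP-dependent sugar kinase, fell by 0.81 ± 0.31 (SE) and 1.61 ± 0.34 (SE). In WT *Pfkfb2* (-1.97 ± 0.63, SE) and *Shpk*, the sedoheptulose kinase (-1.51 ± 0.50, SE), were also called lower. The WT calls of *Adpgk*, *Pfkfb2* and *Shpk* were each lost on leaving out a library (edgeR FDR up to 0.298, 0.255 and 0.209), and those of *Adpgk* and *Shpk* also with DESeq2 (adjusted p 0.106 and 0.0831). Without replicate 2 of WT at day 0 the value of *Pfkfb2* was -1.06, without replicate 1 of WT at day 5 that of *Shpk* was -0.91, and without replicate 2 of WT at day 5 that of *Adpgk* was -0.47. Between genotypes at day 5, *Gpd2*, the mitochondrial glycerol phosphate dehydrogenase that passes electrons from glycolytic NADH to the respiratory chain, was the 1 companion called. It stood at 72.5 and 72.8 CPM in WT beside 119 and 119 CPM in the KO-labelled libraries, a log2 fold change of 0.71 ± 0.14 (SE) (edgeR FDR 0.0284), and between 62.9 and 80.4 CPM in the day 0 libraries. The call was lost on leaving out either WT library of day 0, either WT library of day 5 or either KO library of day 5 (edgeR FDR 0.0632 to 0.261), with the log2 fold change between 0.70 and 0.71. No companion was called at day 0 by edgeR, with 3 at an unadjusted p under 0.05 and 0 called by DESeq2.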

How the data were processed

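The authors deposited 1 table per library of raw counts of reads by gene symbol, each closed by summary lines from the counting step. Per the labels, total RNA of sorted cells was extracted with Trizol, made into libraries with an NEBNext Ultra RNA kit and sequenced as 50 base reads. The submitters' processing notes name HISAT2 2.1.0, HTSeq 0.11.1 and mm10 (GRCm38), without saying what each did. The annotation and strand setting are not given in the sources used here.

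Summary lines were left out of totals and tests. All 8 libraries entered 1 quasi-likelihood fit in edgeR 4.0.16 (R 4.3.3, form used before edgeR 4) with TMM factors, a mean per group and the default filter (minimum count 10). Tests were two-sided, and FDR was adjusted over 12597 genes. The biological coefficient of variation was 15.0%. Replicates correlated at 0.975 to 0.980 across genes (Pearson, log2 CPM) and differed by more than sampling noise (chi-square per degree of freedom 4.69 to 9.40). CPM used TMM-scaled totals, and CPM per kb the length of the principal GENCODE M21 mRNA; 46394 symbols matched. Log2 ratios used counts plus 0.5. The fit was tested on simulated counts.

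The members, lists and tests were chosen with earlier results of these data known. Values in every library were printed for members called between genotypes, for the 8 largest culture changes per genotype without replicate overlap, and for flux-controlling or alternative isoenzymes; companions were named when called between genotypes or among the 5 largest culture changes, except 1 companion that is not reported here. Alternatives were DESeq2 1.42.0 and its size factors in edgeR, library totals, no filter, at least 5 CPM in 2 libraries, the libraries of a comparison alone, a replicate block, the edgeR 4 form, a loess offset (span 0.3) for exon GC and length, known for 96.9% of tested genes, thinning to 4170126 counts, a count of 5 added before ratios, and leaving out each library; leaving out members with at least 20% shared windows was added after the data were seen.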

Additional observations from a re-analysis of the deposited data

How the results depend on the processing

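Of 51 member calls, 48 held under all 10 alternatives other than leaving out a library, 43 held when each library was also left out, and 0 reversed. *Ldhb* and *Rpe* each lost a call, and *Pfkfb4*, called in the KO-labelled libraries, was not tested with at least 5 CPM in 2 libraries. Beside 2 members called between genotypes at day 5, 4 were called with no filter on low counts, 1 with only the libraries of the comparison, 5 with DESeq2 and 1 among members under 20% shared windows; leaving out a library gave 0 to 5. Beside 0 interaction calls, no filter and DESeq2 each gave 1, *Hk1*. Beside 3 members called lower in WT culture, 1 was left among members under 20% shared windows, and leaving out a library gave 1 to 3. Beside 1 called lower in the KO-labelled libraries, library totals gave 4, no filter 2, only the libraries of the comparison 2 and the GC and length offset 3; leaving out a library gave 0 to 2. The log2 ratio of *Pfkm* to *Pfkl*, 0.09 and not past the exact permutation test, ranged from -0.0884 to 0.242 when a library was left out, and was negative without replicate 1 of WT at day 0 and without replicate 2 of WT at day 5 (-0.0752). The cause of these shifts was not tested, save that leaving out libraries, genes or members leaves fewer of them.

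With the replicate number as a block the counts of member calls were those without it: 0 and 2 between genotypes at day 0 and day 5, 21 higher and 3 lower in WT culture, 24 higher and 1 lower in the KO-labelled libraries, and 0 for the interaction. Deviations of same-numbered libraries correlated at -0.07 to 0.23 between groups, with the 2 highest values, 0.12 and 0.23, between the days within a genotype. Not every correlation passed 0.1 and no label states a shared mouse or batch, so the numbers were not taken as pairs. The block was common to both genotypes, so it could not test a source shared by the days within a genotype, and none was tested.

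Over all genes, DESeq2 called 351 genes between genotypes at day 5 beside 205, and 135 for the interaction beside 20; no filter gave 434 and 418 between genotypes beside 227 and 205, and 154 for the interaction. Leaving out a library gave 38 to 276 at day 0, 32 to 249 at day 5 and 0 to 41 for the interaction. Where a group kept 1 library, it was assumed to vary like the others. Genes with few reads, such as *Eno2*, *Pgls*, *Rpia* and *Pdk2*, have wide errors at this depth.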
